A study of Mus musculus with 4 samples.

Results

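The chaperonin-like Bardet-Biedl syndrome (BBS) genes Mkks, Bbs10 and Bbs12 were examined for binding of the transcription factor RFX2 in mouse testis. The set was given by name, under a rule that uses no binding value although earlier results of these data were known, and held 3 of the 21938 protein-coding genes annotated on build GRCm38. Mkks, also called BBS6, Bbs10 and Bbs12 encode proteins related to the subunits of the cytosolic chaperonin CCT (also called TRiC), which folds newly made proteins. Together with CCT they form a complex that stabilises BBS7 and starts assembly of the BBSome, the coat-like complex that carries membrane proteins into and out of cilia. RFX factors bind the X-box, an inverted repeat found at the starts of many ciliary genes, and the sperm flagellum is a specialised cilium built during spermiogenesis.

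RFX2 occupancy was measured by ChIP-seq, where chromatin fragments held by the protein are pulled down with an antibody and read by sequencing. By the sample labels, chromatin came from decapsulated testes of wild type mice on a C57BL/6|129/Sv|FVB/N mixed background, aged 29 to 30 postnatal days, and was precipitated with an RFX2 antibody from Santa Cruz Biotechnology. The 2 ChIP samples came from independent mice and are called replicates 1 and 2, and the 2 input samples, chromatin without antibody, entered only through peak calling. The study's text instead describes dissociated germ cells from younger mice for this experiment, so the age of the mice, and with it the germ cell stages present, and the share of somatic cells are not settled by the sources. Under either account a peak is an average over a mixture of cells, and no knockout chromatin was analysed here. The lists hold no expression values, so the tissue could not be checked against its marker genes.

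The authors' peak lists gave 39825 peaks in replicate 1, 21274 in replicate 2 and 2726 in a further list, called the combined list here, which appears to be a call on pooled reads. Peaks of both replicates met 2723 of the 2726 combined peaks (99.9%), and the study's methods select reproducible peaks, so presence in both replicates may be built into that list. Each peak carries a score on a −log10 scale, where a higher score marks enrichment less likely to arise from background. The score range was 2.03 to 475 for replicate 1, 2.08 to 266 for replicate 2 and 43.2 to 493 for the combined list. Scores are not on a common scale between lists. The median peak was 199 bp wide in replicate 1, 181 bp in replicate 2 and 886.5 bp in the combined list. A promoter was taken as 1000 bp upstream to 500 bp downstream of any annotated transcription start site (TSS). By this measure 5.26% of protein-coding genes had a promoter peak in the combined list, 14% in replicate 1, 11.3% in replicate 2 and 9.05% in both replicates. Read depth is unknown, since the lists hold no counts. A gene with no listed peak is therefore one where no enrichment passed the authors' threshold, which does not show that RFX2 was absent.

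The promoter sequences of the 3 genes are shown because the RFX2 lists separate them at this place. They were taken from RefSeq on build GRCm38.p6 and run from 250 bases before to 50 bases after the RefSeq start. Capitals mark the stretch that came closest to the 14-bp palindrome GTTGCCATGGCAAC, the most frequent perfect inverted repeat in the 200 bp around the combined summits, where it stood in 163 of 2726 windows. All 3 members were matched in the RefSeq table.
Mkks, chr2:136891357-136891656, minus strand: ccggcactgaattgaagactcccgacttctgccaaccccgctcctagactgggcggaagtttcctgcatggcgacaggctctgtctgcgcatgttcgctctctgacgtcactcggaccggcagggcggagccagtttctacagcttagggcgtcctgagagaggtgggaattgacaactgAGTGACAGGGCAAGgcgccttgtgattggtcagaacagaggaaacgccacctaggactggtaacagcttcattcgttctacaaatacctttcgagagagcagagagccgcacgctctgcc
Bbs10, chr10:111298429-111298728, plus strand: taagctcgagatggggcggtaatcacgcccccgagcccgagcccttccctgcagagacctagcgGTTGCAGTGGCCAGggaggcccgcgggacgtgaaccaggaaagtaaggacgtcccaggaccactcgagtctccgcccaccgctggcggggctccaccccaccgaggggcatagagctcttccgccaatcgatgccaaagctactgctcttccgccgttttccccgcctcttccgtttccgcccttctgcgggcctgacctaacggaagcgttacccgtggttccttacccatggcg
Bbs12, chr3:37312304-37312603, plus strand: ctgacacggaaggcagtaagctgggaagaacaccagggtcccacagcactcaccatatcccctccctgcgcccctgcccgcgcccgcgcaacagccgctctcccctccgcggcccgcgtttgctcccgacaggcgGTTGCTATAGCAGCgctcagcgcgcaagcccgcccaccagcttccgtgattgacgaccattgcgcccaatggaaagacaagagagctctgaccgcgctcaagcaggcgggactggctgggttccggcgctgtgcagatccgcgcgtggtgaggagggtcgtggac

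Bbs12 was the only one of the 3 genes with an RFX2 promoter peak, and it had that peak in all 3 lists. Mkks and Bbs10 had none in replicate 1, replicate 2 or the combined list. The count was thus 1 of 3 genes in each list and in both replicates, against the 5.26%, 14%, 11.3% and 9.05% of all protein-coding genes given above. With 3 members a single gene sets the share, and no test was made of it. The genes that the chaperonin-like proteins serve stood apart in number. Of the 8 BBSome subunit genes, 7 had a promoter peak in the combined list and 8 in each replicate. Of the 9 CCT genes, 0 had one in the combined list, 2 in replicate 1, 1 in replicate 2 and 0 in both replicates.

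**Figure D1:**
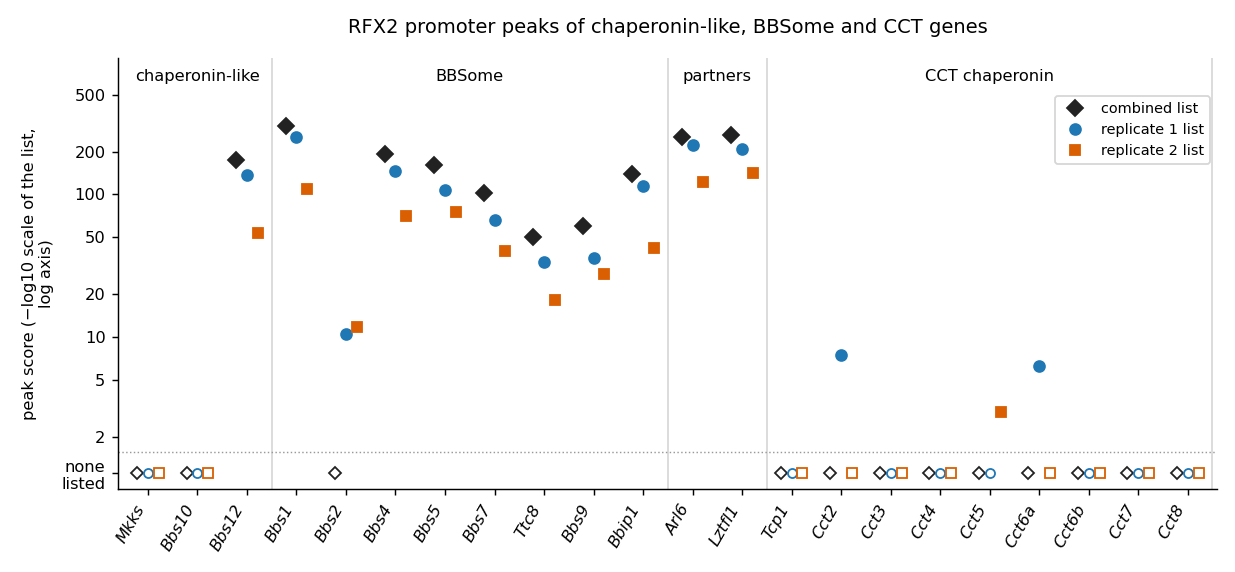
Score of the highest promoter peak of each gene (y axis, −log10 scale of the list, log axis) in the combined list (black diamonds), replicate 1 (blue circles) and replicate 2 (orange squares). Open symbols on the lowest line mark genes with no listed promoter peak: Mkks and Bbs10 stand there in all 3 lists, whereas Bbs12 lies at 176, 137 and 53.5, within the range of the BBSome genes. Scores are not comparable between lists.

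Bbs12, on the plus strand of chromosome 3 with its 5′-most TSS at position 37312554 (ENSMUSG00000051444.9), carried a strong peak. In the combined list the peak spanned chr3:37312032-37312749 (718 bp) with 20.5-fold enrichment over local background and a −log10 p of 176. It ranked 353 of 2726 by −log10 p and 213 of the 1003 combined peaks in promoters. Replicate 1 had a peak at chr3:37312174-37312749 (576 bp) with a score of 137, which ranked 363 of 39825. Replicate 2 had a peak at chr3:37312032-37312739 (708 bp) with a score of 53.5, which ranked 465 of 21274. The peak thus lay above 99.1% of the replicate 1 list, above 97.8% of the replicate 2 list and above 87.1% of the combined list, which starts at a far higher score. Ranked by fold enrichment rather than by −log10 p, it took place 854 of the combined list.

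Both replicates placed the Bbs12 peak at the same spot. The replicate peaks shared 566 bp, which was 98.3% of the replicate 1 peak and 79.9% of the replicate 2 peak, and their centres were 76 bp apart. The centre lay 93 bp upstream of the Bbs12 TSS in replicate 1 and 169 bp upstream in replicate 2, and the combined summit lay 106 bp upstream. With 2 replicates no error can be put on these distances beyond that range. The combined peak probably shares its reads with both replicates and is no independent measurement. Among combined promoter peaks, the Bbs12 peak ranked directly below that of Dpy19l2 (−log10 p 175.9, fold enrichment 19.1), a gene required for formation of the sperm acrosome, and directly above that of Prr7 (−log10 p 174.9, fold enrichment 13.5).

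Bbs12 does not have this region to itself. Cetn4, which encodes a centrin of the centriole and basal body, is transcribed from the opposite strand and has 3 annotated start sites here, at 37312420, 37312446 and 37312708. The middle start, shared by 3 transcripts, lies 2 bp from the combined summit, and the outer ones lie 28 and 260 bp from it. The noncoding transcript Gm43439 starts on the plus strand at 37312519, which is 71 bp from the summit. The peak covered all these starts, and the middle Cetn4 start was closer to the summit than either Bbs12 start (106 and 108 bp). Binding at Bbs12 and binding at Cetn4 cannot be told apart from these lists.

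**Figure D2:**
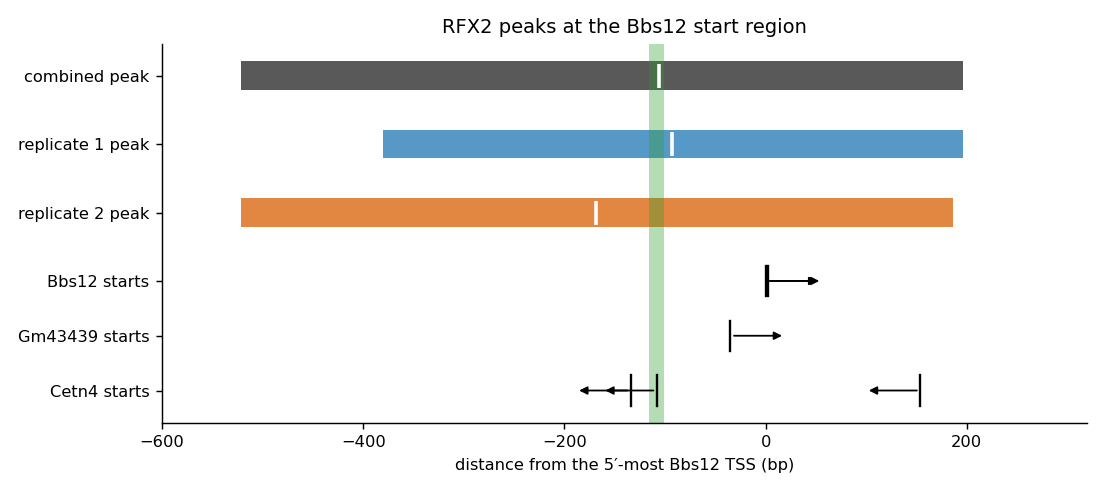
Extent of the Bbs12 peak in the 3 lists (bars) with the combined summit or the replicate centre (white lines), against distance from the 5′-most Bbs12 TSS in bp (x axis). Vertical ticks with arrows mark annotated starts and their direction, and the green band marks the 14-bp X-box match at −115 to −102 bp, which holds the combined summit (−106 bp) and the middle Cetn4 start.

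The Bbs12 peak also held an X-box-like sequence at its summit. The search allowed at most 3 mismatches to GTTGCCATGGCAAC, which reads the same on both strands. Within the 718 bp of the peak 1 such match was found, GTTGCTATAGCAGC at chr3:37312439-37312452, which covers positions −115 to −102 bp from the TSS and contains the summit. It differed by C6T, G9A and A13G, where the palindrome's base comes first and positions start with 1 at its 5′ end. A match of this quality was present in 76.7% of the combined peaks, in 60.6% of the combined peaks in promoters and in 8.97% of all 1501-bp promoters around the 5′-most TSS. Among genes with a combined promoter peak the share of promoters was 48.3%, and among genes without one it was 6.78%. The palindrome was itself taken from the combined peaks, so its higher share there follows in part from that choice. The match was not present at a limit of 2 mismatches, which 34.8% of the combined peaks in promoters passed. These limits count from the most frequent repeat only. The second most frequent perfect inverted repeat around the combined summits carries C6T and G9A together, and stood in 11 windows against 163. The Bbs12 match differs from that second repeat by A13G alone. No search was made with the second repeat. The capitals in the Bbs12 promoter above mark the Bbs12 match described here.

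Neither Mkks nor Bbs10 had a match with at most 3 mismatches in the 1501-bp promoter. The best stretches of Bbs10 had 4 mismatches, and there were 2 of them. The stretch GATGCCAAAGCTAC (T2A, T8A, G9A and A12T) covers −57 to −44 bp from the TSS, and the stretch in capitals above, GTTGCAGTGGCCAG (C6A, A7G, A12C and C14G), covers −186 to −173 bp. The best stretches of Mkks had 5 mismatches, of which there were 5, and the one printed in capitals, AGTGACAGGGCAAG, differed by G1A, T2G, C5A, T8G and C14G. Matches this loose were common, since 41.5% of all 1501-bp promoters held a match with at most 4 mismatches and 95.4% held a match with at most 5. In the shorter RefSeq promoters of 300 bases, 3.37% of 32851 sequences held a match with at most 3 mismatches, 12.2% with at most 4 and 48.0% with at most 5. A match is a description of letters, and its absence says only that these letters are not in the window.

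Base composition did not set the 3 promoters far from others. G+C made up 51.4% of the 1501-bp promoter of Mkks, 51.0% of that of Bbs10 and 56.4% of that of Bbs12, where the median over all protein-coding genes was 51.8% and the quartiles were 46.1% and 56.6%. Repeats, marked by lower case in the genome sequence, covered 12.1% of the Mkks promoter, 5.33% of the Bbs10 promoter and 5.86% of the Bbs12 promoter. The median was 13.9%, so repeat cover was below the median in all 3. How far reads can be placed uniquely there was not measured, and any bearing on the missing peaks was not tested.

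Mkks (ENSMUSG00000027274.16, chromosome 2, minus strand, positions 136873780 to 136891389) had 3 annotated starts within 235 bp. Its start region is also shared. Slx4ip, which encodes a partner of the SLX4 structure-specific nuclease scaffold, is transcribed from the opposite strand with 4 starts within 1000 bp of a Mkks start, the closest 64 bp away. AL731706.1, annotated as protein-coding, starts at the same base as Mkks. None of these genes had a promoter peak in any of the 3 lists, so the whole shared start region of Mkks was without a listed peak.

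The nearest listed peaks of Mkks were weak, distant or both. Replicate 1 had a peak of score 2.96 at chr2:136881558-136881717, 9.75 kb downstream of the TSS over an exon of Mkks, which ranked 36983 of 39825 and was met by no peak in replicate 2 or the combined list. In replicate 2 the nearest was an intergenic peak of score 4.14 at chr2:136828667-136828822, 62.6 kb downstream, which was not met in replicate 1. These nearest peaks were thus each seen in a single replicate. The nearest peak found in both replicates lay 192.2 kb upstream and overlapped an exon of Jag1, which encodes a Notch ligand. Its combined summit lay 2418 bp from a Jag1 TSS. It scored 41.8 in replicate 1 and 23.1 in replicate 2, and was the nearest combined peak, with a −log10 p of 65.9 and rank 1751. On the other side the nearest combined peak was that of the Ankef1 promoter, 359.2 kb downstream, with a −log10 p of 133.

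Bbs10 (ENSMUSG00000035759.4, chromosome 10, plus strand, positions 111298679 to 111301727) had a single annotated start and no other gene start within 1000 bp. In replicate 1 its nearest peak was intergenic, at chr10:111312840-111313089, 14.3 kb downstream, with a score of 2.96. In replicate 2 it lay 40.4 kb upstream in an intron of Osbpl8, which encodes an oxysterol-binding-protein-related protein, at chr10:111258218-111258373 with a score of 6.03. Neither of them was met in the other replicate. The nearest peak found in both replicates lay 102.7 kb upstream of Bbs10, also in an intron of Osbpl8. It scored 89.5 in replicate 1 and 33.1 in replicate 2, and in the combined list it spanned chr10:111195592-111196455 with 24.6-fold enrichment, a −log10 p of 121 and rank 741. The nearest combined peak downstream was at the promoter of Nap1l1, which encodes a histone chaperone, 174.5 kb away with a −log10 p of 68.3. The combined peaks nearest to Bbs10 on either side thus lay in an intron or a promoter of another gene.

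**Figure D3:**
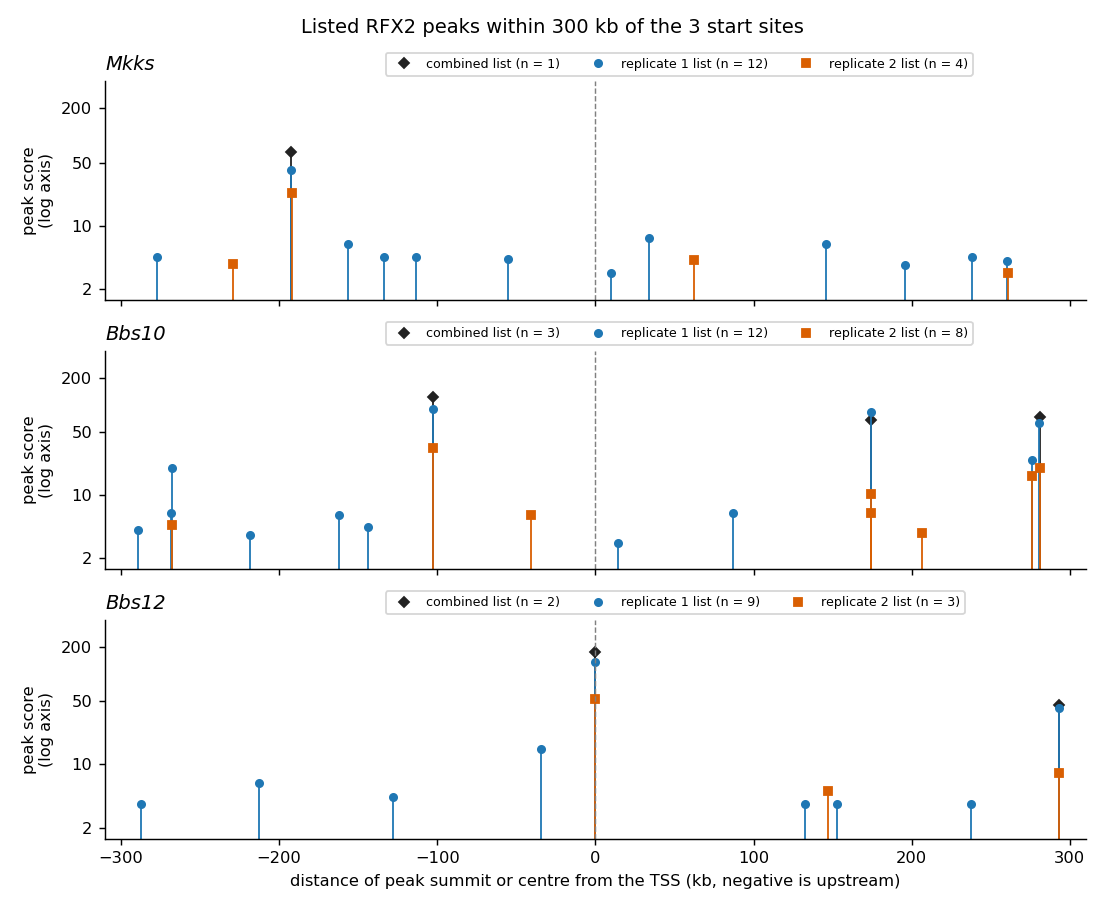
Listed RFX2 peaks within 300 kb of the TSS of Mkks, Bbs10 and Bbs12. The x axis gives distance from the TSS in kb in the direction of transcription, the y axis the peak score (log axis), and colours the list. Bbs12 alone has peaks at 0 kb, whereas the nearest combined peaks stand at −192.1 kb for Mkks and −102.6 kb for Bbs10.

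Outside its promoter Bbs12 had few strong neighbours. Its next combined peak was an intergenic one at chr3:37605122-37605765, 293.0 kb downstream, with a −log10 p of 45.9 and rank 2601, and the nearest start was that of Spata5, 31944 bp from it. This peak was met by both replicates, with scores of 42.2 and 8.10. Upstream, the next combined peak was that of the Bbs7 promoter, 699.1 kb away on the same chromosome. Bbs7 encodes the BBSome subunit with which the chaperonin-like proteins start assembly. Replicate 1 also had a peak of score 15.0 located 34.2 kb upstream of Bbs12, which replicate 2 did not have.

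Against all genes, Mkks and Bbs10 lay at middling distances from RFX2 peaks. The median distance from the 5′-most TSS to the nearest peak was 217 kb in the combined list over 21755 genes, those on chromosomes with a combined peak. It was 22.7 kb in replicate 1 and 36.2 kb in replicate 2. For Mkks, 53.2% of genes lay farther from a combined peak, 71.5% farther from a replicate 1 peak and 34.1% farther from a replicate 2 peak. For Bbs10 these shares were 67.7%, 63.1% and 47.0%. For Bbs12 they were 97.6%, 97.2% and 95.6%. Mkks and Bbs10 therefore lay on either side of the median depending on the list, with 34.1% to 71.5% of genes farther. Bbs12 lay among the genes closest to a peak.

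**Figure D4:**
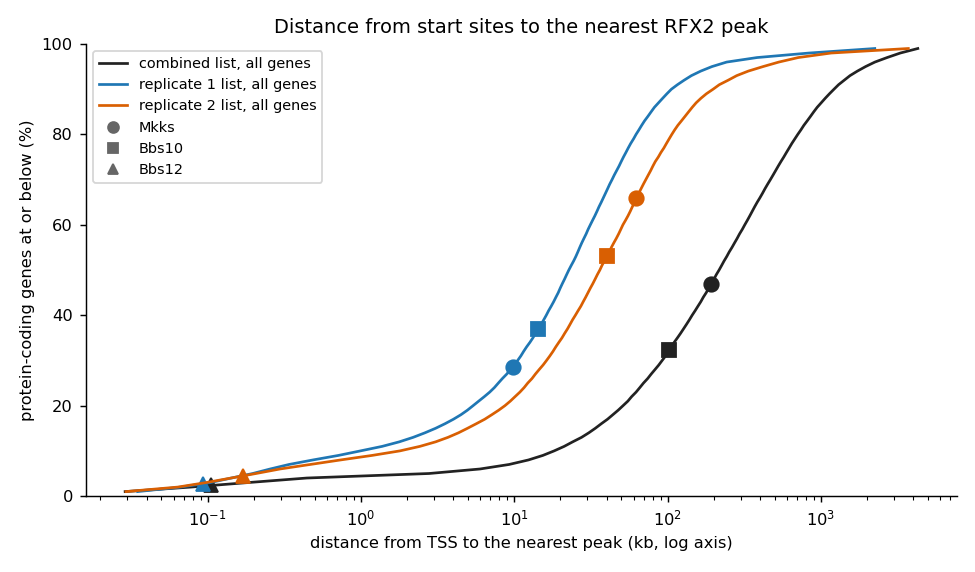
Share of protein-coding genes (y axis, %) whose 5′-most TSS lies at or below a given distance from the nearest listed peak (x axis, kb, log axis), 1 curve per list, with Mkks (circles), Bbs10 (squares) and Bbs12 (triangles) marked. Mkks and Bbs10 fall on either side of the median depending on the list, with 34.1% to 71.5% of genes farther. Bbs12, at 0.106, 0.093 and 0.169 kb, falls at the lower end of each curve.

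The BBSome genes gave the closest comparison, since the BBSome is what the chaperonin-like proteins assemble. In the combined list Bbs1, Bbs4 and Bbs5 had promoter peaks with −log10 p of 304, 192 and 161, Bbip1 and Bbs7 of 140 and 102, and Bbs9 and Ttc8 of 60.3 and 49.9. The Bbs12 value of 176 fell between those of Bbs4 and Bbs5. The median of the 7 BBSome genes with a combined peak was 140, and the median of all 1153 protein-coding genes with one was 106. In replicate 1 the 8 BBSome genes ranged from 10.4 to 253 with a median of 86.6, and Bbs12 had 137. In replicate 2 they ranged from 11.8 to 108 with a median of 40.9, and Bbs12 had 53.5. Bbs12 thus lay inside the BBSome range and above its median in each list. The medians of all genes with a promoter peak were 17.4 in replicate 1 and 13.4 in replicate 2.

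Bbs2 was the BBSome gene most like Mkks and Bbs10 in having no combined promoter peak. It differed from them in the replicates, where peaks of score 10.4 (rank 7849) and 11.8 (rank 2951) overlapped its promoter window. Their centres lay 596 and 648 bp downstream of the Bbs2 TSS, outside the window, so Bbs2 counted through the upstream edge of each peak. Of the genes that work beside the BBSome, the small GTPase gene Arl6, whose product recruits the BBSome to membranes, had a combined −log10 p of 254, and Lztfl1, whose product limits BBSome entry into cilia, had 263. Both exceeded the Bbs12 value.

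For the CCT genes, which encode the subunits of the chaperonin itself, the counts of 0, 2, 1 and 0 of 9 given above stand beside background shares of 5.26%, 14%, 11.3% and 9.05%. No test was made of them. Tcp1, Cct3, Cct4, Cct6b, Cct7 and Cct8 had no promoter peak in any list. Cct2 had a peak of score 7.45 (rank 10532) in replicate 1 only, and Cct5 had a peak of score 2.96 (rank 20213) in replicate 2 only. Cct6a, annotated as a processed transcript in the gene models used, had peaks of 6.29 and 2.92 in replicate 1 only, both at internal starts. No CCT gene with a promoter peak in either replicate had it in both.

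**Figure D5:**
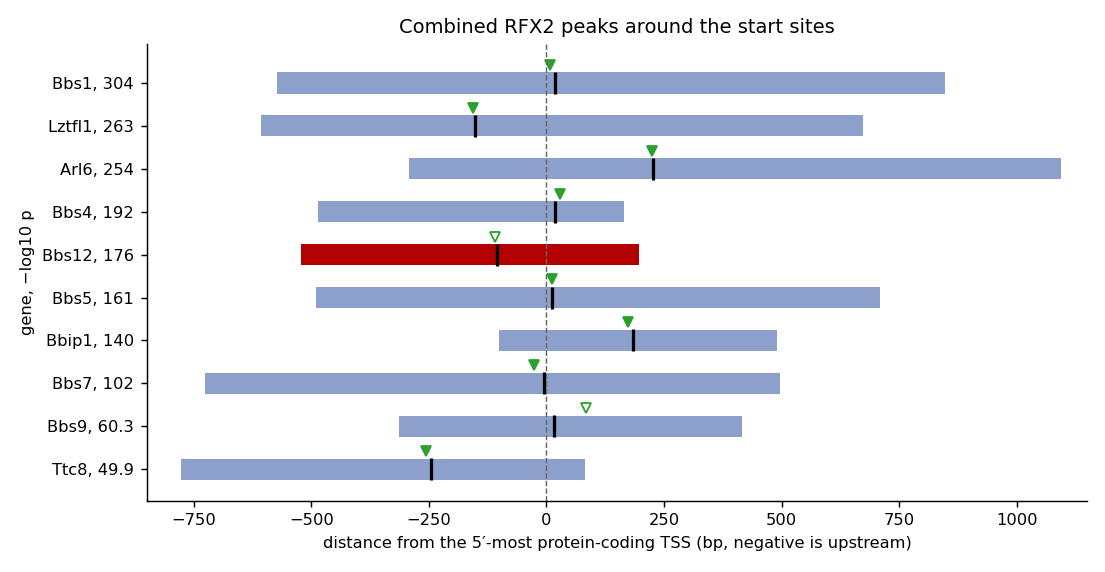
Combined RFX2 peaks (bars) of Bbs12 (red), the BBSome genes and the partners Arl6 and Lztfl1 (blue), ordered by −log10 p (printed beside the gene), against distance from the 5′-most protein-coding TSS in bp. Black lines mark summits, and triangles mark the best pair of X-box arms, filled where the arms held at most 2 mismatches. Bbs12 lies between Bbs4 and Bbs5 in −log10 p and has an open triangle, as does Bbs9.

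Measured from the 5′-most TSS of each gene, the position of the Bbs12 summit was within the spread of the BBSome genes. Summit offsets were −5 bp for Bbs7, +12 bp for Bbs5, +15 bp for Bbs9 and +18 bp for both Bbs1 and Bbs4. Those of Bbip1 (+185 bp) and Ttc8 (−246 bp) lay farther from this TSS than the −106 bp of Bbs12. Bbip1, however, has 9 annotated starts over 447 bp, and its summit at 53944442 lies close to the start at 53944460. With at most 3 mismatches to the palindrome, 3 of the 7 BBSome peaks held an X-box-like match, namely Bbs1 (T8A and A12G), Bbs7 (A7T and C11A) and Bbs5 (A7T, A12G and A13C). Of all combined peaks in promoters, 60.6% held such a match.

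Since RFX sites can differ in the spacing of their arms, the arms of the palindrome, GTTGCC and GGCAAC, were also searched with 0 to 4 bases between them. This search was chosen after the data were seen. The best pair in each peak is shown so that Bbs12 can be compared with the genes of the complex it helps to assemble. Capitals mark the arms and lower case the bases between them, in the direction of transcription of each gene.
Bbs12: GTTGCTatAGCAGC
Bbs1: GTTGCCaaGGCGAC
Bbs7: GTTGCCttGGAAAC
Bbs5: GTTGCCttGGCGCC
Bbs4: GTCGCCcgGGAAAC
Ttc8: GTTGCTaGGCAAC
Bbip1: GTTACCccaGGCAAC
Bbs9: GTTGTCtTGCAGC
Arl6: GTTGCCaaGGGAAC
Lztfl1: GTTGCCattGGCAAC

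Lztfl1 held both arms without a mismatch, 3 bases apart. Bbs1, Bbs7, Ttc8, Bbip1 and Arl6 each held them with 1 mismatch of 12, and Bbs4 and Bbs5 with 2. The arms stood 1 base apart in Ttc8 and 3 in Bbip1, so that the fixed-length search above did not find these pairs. The best pairs of Bbs12 and Bbs9 had 3 mismatches, and were centred 2.5 bp from the summit in Bbs12 and 70 bp from it in Bbs9. With at most 2 mismatches over the arms, 6 of the 7 BBSome peaks and not the Bbs12 peak held a pair, as did 69.6% of the combined peaks in promoters and 23.5% of all 1501-bp promoters. The arms, too, were taken from the combined peaks, which can raise the share in those peaks. Mkks and Bbs10 also had best pairs of 3 mismatches, GTTGCTgTGCAAG at 271 to 283 bp downstream of the Mkks TSS and GTTGCAgtGGCCAG in the Bbs10 promoter. Pairs with at most 3 mismatches occurred in 88.5% of all 1501-bp promoters. By this measure the 3 chaperonin-like genes had the same number of mismatches, although Bbs12 was the only member with a promoter peak. The measure counts mismatches to the arms of the most frequent palindrome only. It does not weigh whether changes are paired, as C6T and G9A are in Bbs12, so an equal count does not make the sites alike.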

How the data were processed

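RFX2 ChIP-seq was performed on testes of WT mice in 2 replicates, with 2 inputs. Groups and replicate numbers followed the sample titles. Per the labels and the authors' methods, reads were processed with CASAVA 1.8.2, mapped with Bowtie 0.12.7 to GRCm38, those with several locations were discarded, and peaks were called against input with MACS2 2.0.10.20130520. The library of replicate 2 was resequenced, and reads of that run that aligned to human sequence were discarded, which can also remove conserved mouse sequence. In the deposited replicate lists each peak has 1 number, on a −log10 scale, without stating whether it derives from p or q. The deposited combined list holds a score, the fold enrichment (a ratio to local background), −log10 of the p-value and q-value, and the summit. The archive attaches it to replicate 2, but its peak names begin with "all", and it was read as a pooled call. Its reads are then those of the replicates. The methods also select peaks reproducible between replicates by their irreproducible discovery rate, and give a number of them close to the length of this list. Whether the list is that set, and which MACS2 call the replicate lists hold, is not given in the sources used here. The sample labels and the study's text differ on the age of the mice and on whole testis against dissociated germ cells.

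Overlaps of at least 1 bp were counted in Python 3.11.15 (numpy 2.4.6, pandas 2.3.3) against the starts of GENCODE mouse release 21 (Ensembl release 96), whereas the authors used Ensembl release 70 on the same build. Replicate positions are peak centres, and combined positions are summits. Ranks are by −log10 value. Sequence came from GRCm38.p6. The step that assigns peaks to promoters was tested on simulated data and recovered 200 of 200 planted promoters among 21938 genes. The lists give no read depth, so no interval was attached to a missing peak. Results are counts and descriptions, and no test was run.

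The rule for the members uses no binding value, but the members, gene lists and X-box search were chosen with earlier results of these data known. Named genes were the 3 members, the BBSome subunits, Arl6 and Lztfl1, the CCT subunits, genes that share a start region or peak with a member, genes at the nearest peaks, and genes whose promoter peaks ranked directly beside that of Bbs12. The alternatives were other promoter windows, other starts, summits in place of whole peaks, the upper 50% of each list, single replicates, other ranks and other mismatch limits. RefSeq starts, variable spacing of the arms and the alternatives for both replicates were added after the data were seen.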

Additional observations from a re-analysis of the deposited data

How the results depend on the processing

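Bbs12 alone of the 3 chaperonin-like genes had a promoter peak under every window, start, overlap, threshold and list tried, so their count was 1 throughout (range without either replicate 1 to 1). The BBSome count stayed between 5, in the upper 50% of the combined list, and 8, in the replicate lists. The CCT count was 0 in the combined list and 1 to 2 when a replicate was left out. The share of all genes with a promoter peak was 5.26%. It became 5.79% with 2000 bp to each side, 4.48% with 5′-most starts, 3.42% in the upper 50% of the list, 9.05% in both replicates and 11.3% to 14% without either replicate. The X-box count was taken within combined promoter peaks and depended on the limit. Of the 3 genes only Bbs12 had such a peak, so their count could not exceed 1. It was 1 at 3 mismatches and 0 at 2. With variable spacing of the arms it was 0 at 2 arm mismatches and 1 at 3. At 3 arm mismatches the promoters of all 3 genes held a pair. Among BBSome peaks the count was 3, then 5 at 4 mismatches, and with variable spacing 6 at 2 arm mismatches and 7 at 3. Of all combined peaks in promoters, 60.6% passed at 3 mismatches, 34.8% at 2 and 82.5% at 4. With variable spacing 69.6% passed at 2 arm mismatches and 97.4% at 3. The rank of the Bbs12 peak was 353 by −log10 p and 854 by fold enrichment in the combined list, and 363 by score and 4321 by width in replicate 1. In both replicates together the BBSome count fell from 8 to 7, losing Bbs2, when the peak centre had to lie in the promoter or the window was narrowed to 500 bp upstream and 50 bp downstream.

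No paired analysis was possible because the inputs, which share replicate numbers with the ChIP samples, have no list of their own, and the results come from no test. The lists hold only peaks past the authors' thresholds and no read counts, so binding at Mkks or Bbs10 too weak to be listed was not detectable here. The lowest listed scores were 2.03 in replicate 1 and 2.08 in replicate 2. The age of the mice and the cells used are described differently by the labels and the study's text. Cetn4 and Bbs12 share their peak, and which of them it serves cannot be told apart.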
